A study of Mus musculus with 16 samples.

Results

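The V segments of the T cell receptor were measured as read counts in mouse CD8 T cells, with and without the transcription factor Batf3. They were taken as every gene whose symbol starts with Trav, Trbv, Trgv or Trdv and whose biotype is not a pseudogene, which gave 136 of the 55335 gene identifiers in the counts. Of these, 108 were alpha segments (Trav, chromosome 14, 52427928 to 53977678 in GRCm38), 22 were beta segments (Trbv, chromosome 6, 40891229 to 41558452), 5 were delta segments (Trdv, chromosome 14, 53881612 to 54149294) and 1 was the gamma segment Trgv2 (chromosome 13, 19336573 to 19337167). Another 34 V segments with a pseudogene biotype were left out. A test was possible for 127 of the 136 (103 alpha, all 22 beta, Trgv2 and Trdv1), and the other 9 had too few counts.

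A T cell receptor is a pair of chains, alpha with beta or gamma with delta. Each chain begins with a V segment that was joined to a J segment (beta and delta also use a D segment) by DNA recombination in the thymus, and ends with a constant region. The V segment encodes most of the variable domain, including loops that touch the peptide and the presenting molecule. One mature cell transcribes mainly the segments it rearranged, so in bulk RNA the level of a V segment mixes how many cells use it with how much receptor RNA each cell holds. Fewer cells with a segment and less RNA per cell cannot be told apart in these libraries.

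The series enriched CD8 T cells from spleens of Batf3-/- mice (labelled BATF3-ko, here ko) or of wild-type mice (wt), both labelled C57BL/6. All cells were cultured with IL-15 at 50 ng/ml and stimulated with plate-bound antibody to CD3e and antibody to CD28, each at 1 µg/ml. There were 4 libraries from ko cells at 48 h, 4 from wt cells at 48 h, 4 from ko cells at 72 h and 4 from wt cells at 72 h. The ages and the number of mice are not stated. Since the submitters describe the 4 as technical replicates, p-values measure only the spread between such libraries. A repertoire differs from mouse to mouse, and genotype and mouse cannot be told apart here.

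Libraries held 29375818 to 39241169 counts, of which V segments took 0.0385% to 0.0653%. Batf3 itself had 0 to 11 counts in ko libraries and 844 to 3441 in wt libraries. Over 9307 expressed genes, replicate 4 of ko at 48 h deviated from the other 3 libraries of its group by 0.231 (root mean square, log2 scale) and replicate 4 of wt at 72 h by 0.214, while the other 14 libraries deviated by 0.107 to 0.160. Cd8a averaged 287.2 ± 16.9 CPM (read counts scaled to a common library size by TMM; SD, n = 4) in ko and 286.5 ± 6.07 CPM in wt (SD, n = 4) at 48 h, whereas Cd4 averaged 0.171 ± 0.0417 CPM in ko and 0.104 ± 0.0818 CPM in wt (SD, n = 4 each). At 48 h Cd8a was thus far above Cd4. The full list of 7 CD4 T cell genes summed to 1280 to 1622 CPM in ko and 1237 to 1431 CPM in wt at 48 h, nearly all of it in genes other than Cd4.

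The 3 beta segments with the largest called differences at 48 h, and an abundant segment that was not called, are shown by the last 60 bases of their coding part (GENCODE transcripts for GRCm38, plus strand). This stretch leads into the junction with D and J, and the capitals mark the last in-frame cysteine codon, where the hypervariable CDR3 loop begins.
Trbv26: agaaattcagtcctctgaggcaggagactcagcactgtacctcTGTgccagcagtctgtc
Trbv23: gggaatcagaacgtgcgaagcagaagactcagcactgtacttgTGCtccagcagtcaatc
Trbv3: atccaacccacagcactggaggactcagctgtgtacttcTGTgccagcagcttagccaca
Trbv29: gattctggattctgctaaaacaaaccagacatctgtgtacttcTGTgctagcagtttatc
Trbv26 (chr6:41227505-41227993) and Trbv23 (chr6:41216073-41216526) were each other's closest beta relative by their annotated transcripts. They shared 73.8% identity, with 91 edits over 347 bases. Trbv3 (chr6:41048290-41048828) was closest to Trbv15 at 61.9%. RefSeq (GRCm38.p6) lists the older names Tcrb-V3 for Trbv26, Tcrb-V20 for Trbv23, Tcrb-V16 for Trbv3 and Tcrb-V7 for Trbv29.

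The alpha locus of this build holds duplicated blocks, and many alpha segments have a copy with the same sequence over the shorter transcript. Trav14d-1 and Trav14n-1 carry the same annotated transcript, while Trav14-1 differs from both. The 60-base window of the coding part with the most differences shows this, with the 4 differing bases in capitals.
Trav14d-1: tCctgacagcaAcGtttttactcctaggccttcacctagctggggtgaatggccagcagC
Trav14n-1: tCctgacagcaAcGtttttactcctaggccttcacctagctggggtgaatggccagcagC
Trav14-1: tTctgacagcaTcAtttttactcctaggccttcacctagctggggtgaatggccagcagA
Over the 16 libraries, Trav14d-1 held 4118 counts and Trav14n-1 held 4115, with at most 1 count between them in any library, while Trav14-1 held 787. There were 19 pairs, covering 38 alpha segments, whose annotated transcripts were identical over the length of the shorter one (called exact copies here). Some of these differed in length, such as Trav15d-1-dv6d-1 with 418 and Trav15n-1 with 352 bases of exon. In 16 of the 19 the members lay within 5 counts of each other in every library, and the largest gap in any pair was 8 counts. Of 7 pairs that differed by 1 to 3 bases, 1 lay within 5 counts, and that pair (Trav13d-3 with Trav13n-3) was at 0 throughout. Exact copies are counted as separate segments below unless stated, although reads from the sequence they share cannot be told apart.

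**Figure D1:**
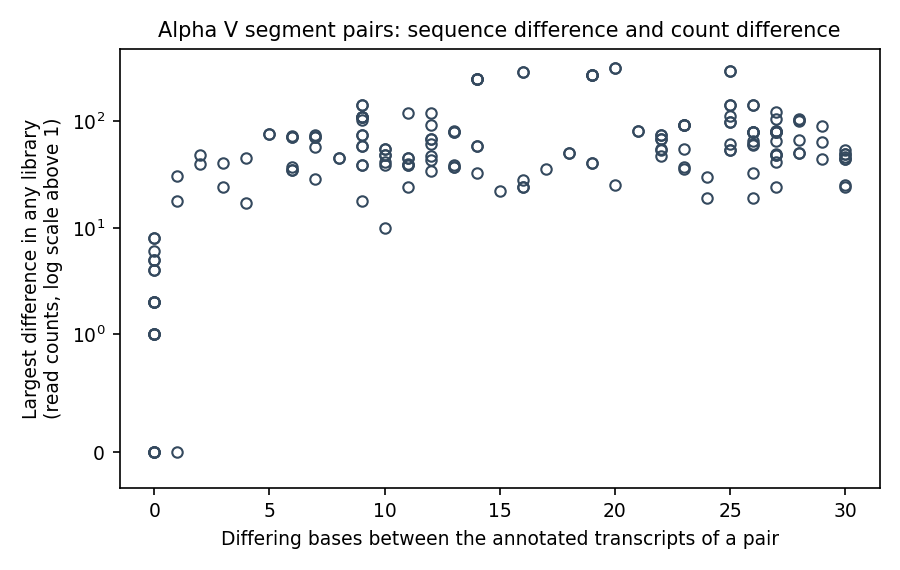
Pairs of alpha V segments whose annotated transcripts differ by at most 30 bases over the shorter one, plotted by the number of differing bases (x) and by the largest count difference in any of the 16 libraries (y, log scale above 1). Pairs with no differing base stay at 8 counts or below.

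No segment was absent from one genotype only. Trav13d-3 and Trav13n-3 had a count of 0 in all 16 libraries, which allows up to 3 counts or 0.0765 to 0.102 CPM in a library (counting error only). The tested segment with the fewest counts had 67 over the 8 ko libraries, and the fewest in the 8 wt libraries was 37. In 11 of the 136 segments at least 1 library was at 0. The file names 6 further gamma V genes Tcrg-V, which the symbol rule does not take in. Of those, 2 could be tested and neither passed the threshold at 48 h or at 72 h.

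Beta segments supplied most of the V segment reads. Per kilobase of exon, Trbv13-2 had the highest mean level over the 4 groups, with 91.3 CPM per kb in ko and 80.3 in wt at 48 h and 125.0 in ko and 111.5 in wt at 72 h. Trbv29, Trbv13-1, Trbv1 and Trbv3 came next, with means over the 16 libraries of 94.8, 84.5, 80.3 and 71.0 CPM per kb. At the other end, Trbv5 had 0.850 and Trbv21 0.509 CPM per kb. Trbv13-2, Trbv13-1 and Trbv13-3 belong to the family long known in mice as V beta 8.

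By summed CPM, beta V segments were higher in ko than in wt cells at both times, and the alpha chain moved less. Summed over the 22 beta segments, the level was 379.8, 384.8, 325.9 and 303.6 CPM in the 4 ko libraries at 48 h, against 264.4, 273.8, 281.1 and 291.3 CPM in the 4 wt libraries. At 72 h it was 422.6, 456.9, 490.0 and 448.9 CPM in ko and 344.1, 388.2, 334.4 and 409.5 CPM in wt. The groups did not overlap at either time, and the log2 ratios of the means were 0.33 at 48 h and 0.30 at 72 h. With scaling by library size alone the 72 h ratio was 0.18 and the groups overlapped. The beta rise was not particular to V segments. The 700 other tested genes of like exon length had median log2 fold changes of 0.24 at 48 h and 0.30 at 72 h. With offsets for exon length, described below, the median over the beta segments was 0.09 at 48 h and -0.03 at 72 h.

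Summed over the 108 alpha segments, the level averaged 121.9 ± 3.47 CPM in ko and 111.8 ± 2.44 CPM in wt at 48 h, and 190.0 ± 8.10 CPM in ko and 177.7 ± 9.61 CPM in wt at 72 h (SD, n = 4 each). The alpha groups did not overlap at 48 h, although they did with scaling by median ratios (log2 ratio 0.11). At 72 h they overlapped, and the log2 ratio was 0.10 and turned to -0.03 with scaling by library size alone. That scaling moved the median of all genes at 72 h to -0.14. Trgv2 averaged 1.84 ± 0.306 CPM in ko and 1.57 ± 0.352 CPM in wt at 48 h, and 2.14 ± 0.329 CPM in ko and 2.60 ± 0.265 CPM in wt at 72 h (SD, n = 4 each), and neither difference passed the test. The 5 delta segments together stayed near 1 CPM or below in every group, at 0.882 ± 0.263 CPM in ko and 1.01 ± 0.312 CPM in wt at 72 h (SD, n = 4 each).

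**Figure D2:**
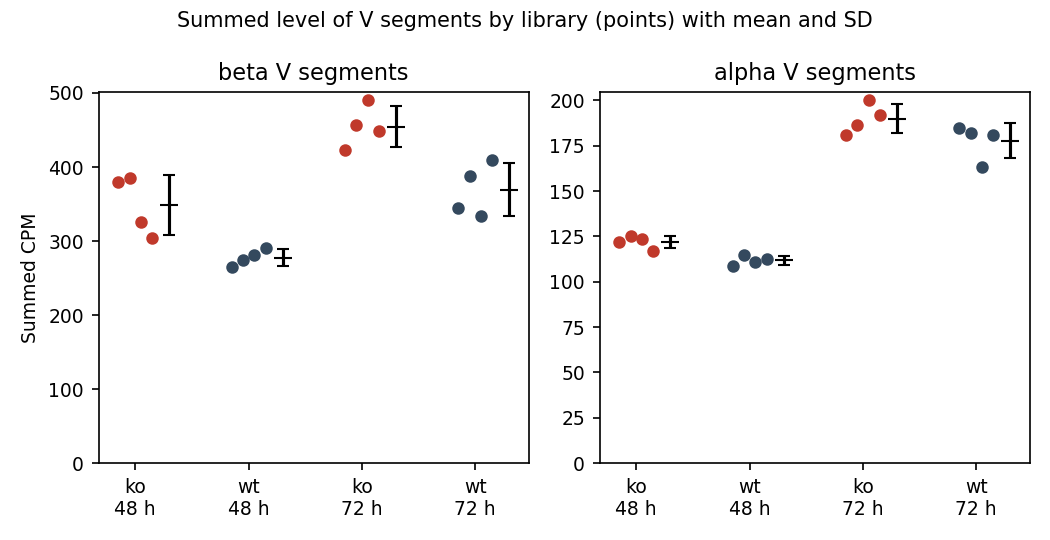
Summed CPM of the beta (left) and alpha (right) V segments in each library (points, ko red and wt dark), with the group mean and SD beside them. At 72 h the ko libraries lie at 422.6 to 490.0 CPM for beta, above the wt range of 334.4 to 409.5 CPM.

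At 48 h, 9 of 127 V segments were higher in ko than in wt and none was lower (edgeR quasi-likelihood test, adjusted p below 0.05 over 15197 genes). Over all genes tested, 4.41% were called higher and 2.66% lower, 7.07% in all. All 9 were beta segments: Trbv23, Trbv26, Trbv3, Trbv12-2, Trbv12-1, Trbv15, Trbv13-3, Trbv13-1 and Trbv16. All 22 beta segments had a positive log2 fold change, with a median of 0.32, against 0.13 over the 103 tested alpha segments and 0.01 over all genes. No alpha segment passed at 48 h (6 had an unadjusted p under 0.05, and DESeq2 and limma-voom also called 0).

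At 72 h, 14 of 127 were higher in ko and 1 was lower, while over all genes 16.9% were higher and 19.5% lower, 36.4% in all. The 14 were 11 beta segments (Trbv26, Trbv23, Trbv3, Trbv15, Trbv4, Trbv12-1, Trbv16, Trbv12-2, Trbv20, Trbv14 and Trbv19) and the alpha segments Trav4-3, Trav6n-6 and Trav3-3. The lower one was Trav6-1. The median log2 fold change was 0.28 over the beta segments, 0.06 over the alpha segments and -0.02 over all genes. Among the 15 calls, 14 were higher, but with exon length offsets 5 of 20 calls were higher, with scaling to the V total of the chain 9 of 14, and with scaling by library size alone 10 of 13. A set of 7 beta segments were called higher at both times, namely Trbv3, Trbv12-1, Trbv12-2, Trbv15, Trbv16, Trbv23 and Trbv26. The share of all genes called higher at both times is not given here, so that count has no background to stand against.

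**Figure D3:**
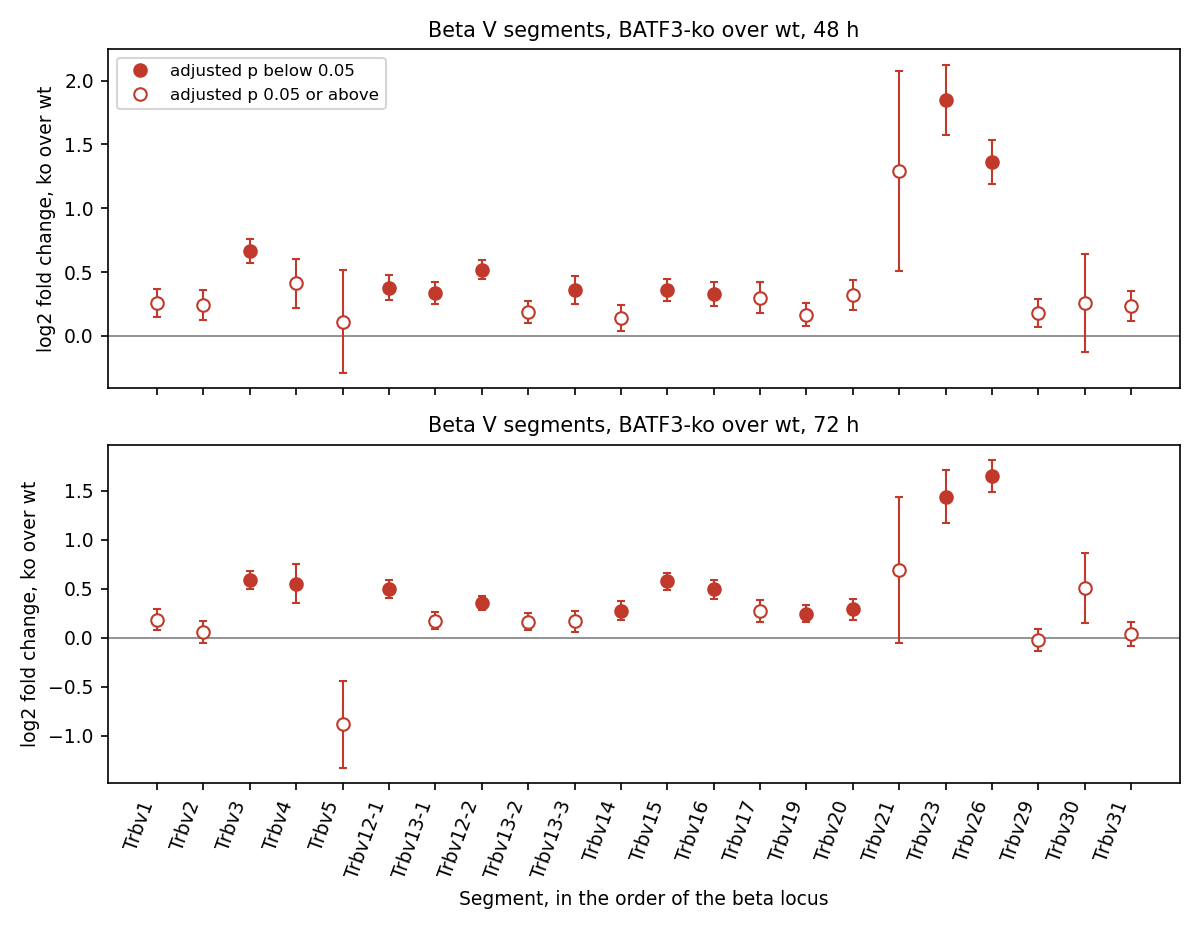
log2 fold change of ko over wt (points) with its standard error (bars) for the 22 beta V segments in locus order at 48 h (top) and 72 h (bottom). Filled points passed the threshold: 9 at 48 h and 11 at 72 h, with Trbv23 and Trbv26 highest among them at both times.

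Exon length moved with these counts, and its part in them was not tested beyond the offsets below. V segments are short (328 to 595 bases of exon), and the other 700 tested genes of that length range had median log2 fold changes of 0.24 at 48 h (57 higher, 3 lower) and 0.30 at 72 h (219 higher, 12 lower). Relative to the mean of the 16 libraries, the median log2 level of those 700 genes was -0.09 to 0.18 in ko and -0.24 to -0.04 in wt libraries at 48 h, and 0.18 to 0.28 in ko and -0.12 to 0.09 in wt libraries at 72 h. Offsets that remove the trend of each library with exon length left Trbv3, Trbv12-2, Trbv23 and Trbv26 called higher at 48 h. At 72 h they left Trbv3, Trbv15, Trbv23 and Trbv26 higher among the beta segments, with 3 lower (Trbv5, Trbv29 and Trbv31), and the beta median was -0.03. The alpha direction turned with these offsets: the median over the 103 alpha segments was -0.11 at 48 h, with no call, and -0.25 at 72 h, with 1 higher and 11 lower. Without replicate 4 of ko at 48 h and replicate 4 of wt at 72 h, the libraries that stood apart, 15 beta segments were called higher at 48 h and 13 at 72 h. Calls over all genes rose as well in that fit, to 2552 of 15345 at 48 h and 6290 at 72 h. With all 16 libraries, 1075 and 5526 of 15197 genes were called.

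Trbv26, Trbv23 and Trbv3 passed at both times under all 29 alternatives tried, which were other scalings, filters and tools, other treatments of copies, and leaving out libraries. Trbv15 did so at 72 h. Several of the 29 could move these calls little. No beta segment has an exact copy, and leaving out a library of the other time keeps every library compared. The remaining calls were less firm, and 1 library could end several of them. Leaving out ko replicate 1 or ko replicate 2 at 48 h left 4 of the 9 calls at 48 h (Trbv12-2, Trbv3, Trbv23 and Trbv26), leaving out wt replicate 1 left these and Trbv15, and leaving out ko replicate 4 gave 13. Calls over all genes moved the same way. In that order they were 603 of 15450, 520 of 15441, 507 of 15441 and 1955 of 15406, against 1075 of 15197 with every library. Trbv13-3 was called in 12 and Trbv16 in 18 of 29 alternatives at 48 h. At 72 h, the count was lowest without wt replicate 3, which left 10 calls and ended those of Trbv4, Trbv14, Trbv19, Trbv20 and Trav6-1. Over all genes, 4617 of 15421 were called at 72 h without that library, against 5526 of 15197 with it.

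Trbv26 had the smallest adjusted p of the V segments at both times. At 48 h it had 6.21, 6.03, 4.04 and 3.94 CPM in ko and 2.25, 1.76, 1.89 and 1.93 CPM in wt libraries. At 72 h it had 9.63, 10.5, 11.2 and 10.4 CPM in ko and 2.62, 4.23, 2.77 and 3.62 CPM in wt libraries. Every ko library was above every wt library at the same time. The log2 fold change was 1.36 (SE 0.174, adjusted p = 1.49e-05) at 48 h and 1.65 (SE 0.164, adjusted p = 8.26e-08) at 72 h in edgeR's quasi-likelihood test.

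Trbv23, its neighbour in the locus, was expressed at a lower level. It had 2.39, 2.23, 2.33 and 1.25 CPM in ko and 0.716, 0.506, 0.543 and 0.501 CPM in wt libraries at 48 h. At 72 h the values were 1.59, 2.44, 1.73 and 2.28 CPM in ko and 0.406, 0.709, 0.828 and 1.01 CPM in wt. The groups did not overlap at either time, although replicate 4 of ko at 48 h lay nearer to wt than the other ko libraries. Its log2 fold changes were 1.85 (SE 0.275, adjusted p = 1.13e-04) and 1.44 (SE 0.272, adjusted p = 2.18e-04), by the same test at 48 h and at 72 h.

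Trbv3 was the abundant segment among the 3. Its level was 34.0, 35.9, 29.3 and 31.1 CPM in ko and 18.0, 23.3, 20 and 20.8 CPM in wt libraries at 48 h. At 72 h it was 43.7, 43.1, 49.5 and 46.5 CPM in ko and 28.7, 31.5, 26.0 and 35.6 CPM in wt. Again no wt library reached a ko library. By edgeR it was higher in ko by 0.67 on the log2 scale at 48 h (SE 0.0940, adjusted p = 5.48e-05) and by 0.59 at 72 h (SE 0.0925, adjusted p = 3.12e-05).

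Trbv12-2 and Trbv12-1, a pair of related segments with 88.3% identity, were higher at both times. Trbv12-2 averaged 24.8 ± 1.23 CPM in ko and 17.3 ± 0.114 CPM in wt at 48 h, and 30.3 ± 2.25 CPM in ko and 23.6 ± 1.11 CPM in wt at 72 h (SD, n = 4 each), with log2 fold changes of 0.52 and 0.36. Trbv12-1 averaged 16.1 ± 2.41 CPM in ko and 12.3 ± 0.459 CPM in wt at 48 h, and 28.0 ± 2.42 CPM in ko and 19.9 ± 1.16 CPM in wt at 72 h (SD, n = 4 each), with log2 fold changes of 0.38 and 0.50. Neither overlapped between genotypes at either time. In Trbv12-1 the 48 h call was lost without ko replicate 1, ko replicate 2 or wt replicate 1 (adjusted p = 0.067, 0.122 and 0.060, edgeR). With exon length offsets Trbv12-1 lost both calls (log2 0.14 at 48 h and 0.18 at 72 h). Trbv12-2 kept its 48 h call there (0.29) and lost that at 72 h (0.04, adjusted p = 0.706, edgeR). Scaled to the V total of the chain, Trbv12-2 lost both calls and Trbv12-1 that at 48 h.

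Trbv15 averaged 15.5 ± 1.54 CPM in ko and 12.1 ± 0.415 CPM in wt at 48 h, and 30.2 ± 1.70 CPM in ko and 20.2 ± 1.72 CPM in wt at 72 h (SD, n = 4 each). Its log2 fold changes were 0.36 (SE 0.0856, adjusted p = 0.0111) and 0.57 (SE 0.0825, adjusted p = 9.95e-06) in edgeR. The 48 h call of Trbv15 was lost without ko replicate 1 or ko replicate 2 (adjusted p = 0.054 and 0.066). It was also lost with exon length offsets and when scaled to the V total of the chain (adjusted p = 0.472 and 0.854, edgeR). The beta segments with the 3 largest mean shares, Trbv13-2, Trbv1 and Trbv29, did not pass the test at either time, with log2 fold changes of 0.18, 0.26 and 0.18 at 48 h and 0.16, 0.18 and -0.02 at 72 h.

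Shares within the chain separate the mix of segments from the total. Trbv26 took 1.43% ± 0.196 of beta V counts in ko and 0.707% ± 0.0974 in wt at 48 h, and 2.30% ± 0.0200 in ko and 0.891% ± 0.141 in wt at 72 h (SD, n = 4 each). Trbv23 took 0.584% in ko and 0.205% in wt at 48 h, and 0.443% in ko and 0.199% in wt at 72 h. Trbv3 took 9.37% in ko and 7.39% in wt at 48 h, and 10.1% in ko and 8.22% in wt at 72 h. None of the 3 overlapped between the genotypes at either time. The share of all genes whose groups do not overlap is not given here. These 3, put together after their values were seen, made up 11.4% of beta V counts in ko and 8.30% in wt at 48 h, and 12.8% in ko and 9.31% in wt at 72 h. They held 23.4% of the ko minus wt difference in summed beta CPM at 48 h and 27.7% at 72 h, so most of that difference lay in the other 19 segments.

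**Figure D4:**
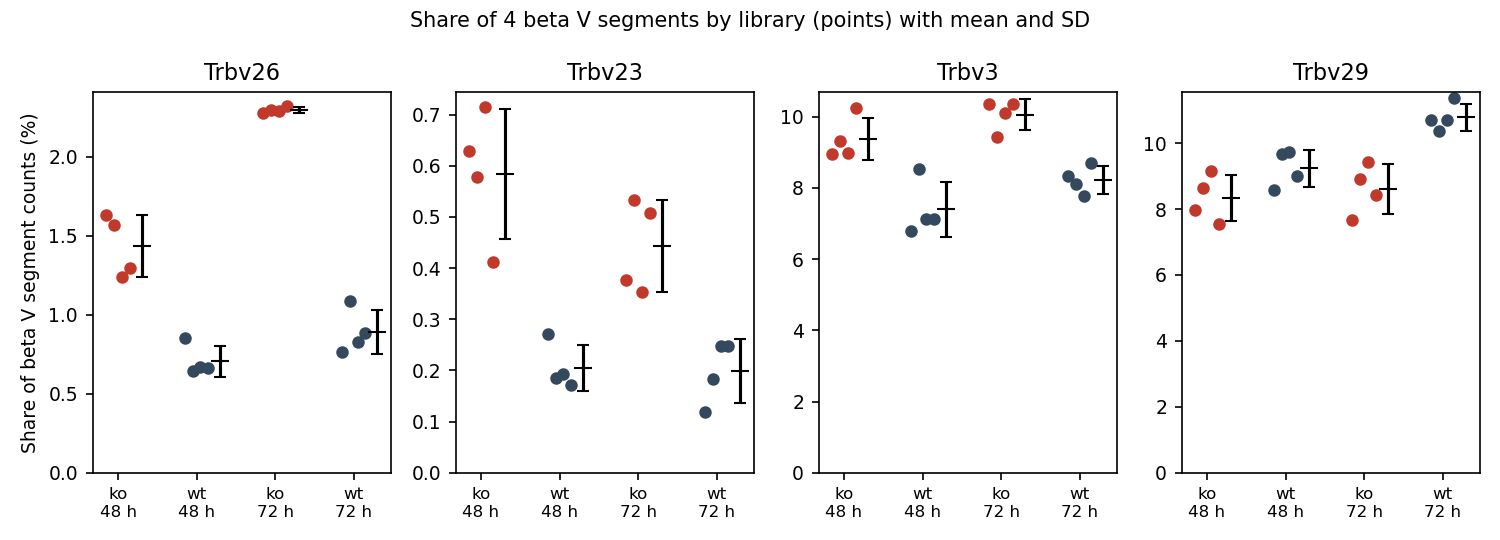
Share of the beta V segment counts of a library (percent) taken by Trbv26, Trbv23, Trbv3 and Trbv29, with each library as a point (ko red, wt dark) and the group mean and SD beside it. Trbv26 reaches 2.30% in ko against 0.891% in wt at 72 h, while Trbv29 is lower in ko at that time.

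A fit scaled to the V total of each chain tests those shares. At 48 h it called Trbv23, Trbv26 and Trbv3 higher in ko, by 1.51, 1.02 and 0.34 on the log2 scale, and no other segment. At 72 h it called 6 beta segments higher (Trbv26, Trbv23, Trbv3, Trbv15, Trbv16 and Trbv12-1) and 4 lower (Trbv29, Trbv31, Trbv2 and Trbv5). Trbv29 had a log2 difference of -0.33 (SE 0.0755, adjusted p = 0.00161, edgeR) and took 7.67%, 8.92%, 9.44% and 8.41% of beta counts in ko and 10.7%, 10.4%, 10.7% and 11.4% in wt at 72 h. Its CPM overlapped between the genotypes, at 39.3 ± 5.78 in ko and 39.9 ± 4.84 in wt (SD, n = 4 each) and a log2 fold change of -0.02 that did not pass (adjusted p = 0.901, edgeR).

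Pairs of libraries were also compared by their whole mix of segments, as a description without a test. The summed share that differs between 2 libraries had a median of 7.05% for ko against wt at 72 h and 5.17% at 48 h, against 3.67% between libraries of the same group. For alpha the medians for ko against wt were 12.1% at 72 h and 11.8% at 48 h, against 11.5% within groups and 12.2% between times. The effective number of beta segments (the inverse Simpson index, which is lower when few segments dominate) was 14.5 ± 0.143 in ko and 14.2 ± 0.159 in wt at 48 h and 14.9 ± 0.158 in ko and 14.3 ± 0.198 in wt at 72 h (SD, n = 4 each). The beta groups did not overlap at either time, with ko the higher. For alpha the effective number was 52.3 ± 1.57 in ko and 58.2 ± 4.18 in wt at 48 h, and 56.3 ± 2.84 in ko and 58.4 ± 3.72 in wt at 72 h (SD, n = 4 each). The alpha groups overlapped at both times. With exact copies counted once they did not overlap at 48 h, where the means were 44.7 in ko and 49.6 in wt.

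Alpha calls at 72 h rested on low counts, apart from that of Trav3-3. Trav4-3 had 72, 56, 69 and 77 counts in ko and 30, 36, 32 and 40 in wt libraries, higher by 1.06 on the log2 scale (SE 0.232, adjusted p = 9.56e-04, edgeR). Trav6n-6 had 58, 51, 39 and 60 counts in ko and 29, 37, 26 and 18 in wt, higher by 0.99 (SE 0.245, adjusted p = 0.00284, edgeR). Both separated the genotypes, but both have near copies. Summed with their copies, the log2 fold changes were 0.31 for the Trav4-3 set (adjusted p = 0.176) and 0.11 for the Trav6n-6 set (adjusted p = 0.424, edgeR). Each set includes both members of an exact copy pair, whose near-equal counts both entered the sum. With exact copies counted once instead, 3 alpha segments were called higher and 1 lower at 72 h. Trav3-3, with 147 to 157 counts in ko and 88 to 150 in wt, was higher by 0.50 and lost its call with exon length offsets (adjusted p = 0.388), as did Trav6n-6 (log2 0.66, adjusted p = 0.0561, edgeR).

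Trav6-1 was the only V segment called lower in ko at 72 h. It had 4, 13, 6 and 20 counts in ko and 19, 37, 43 and 18 in wt libraries, so the groups overlapped. The difference on the log2 scale was -1.37 (SE 0.440, adjusted p = 0.0171 by edgeR), and without ko replicate 1, ko replicate 3 or wt replicate 3 the call was lost (adjusted p = 0.065, 0.059 and 0.087). At 48 h the same segment had a log2 fold change of 0.32 (adjusted p = 0.719, edgeR).

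**Figure D5:**
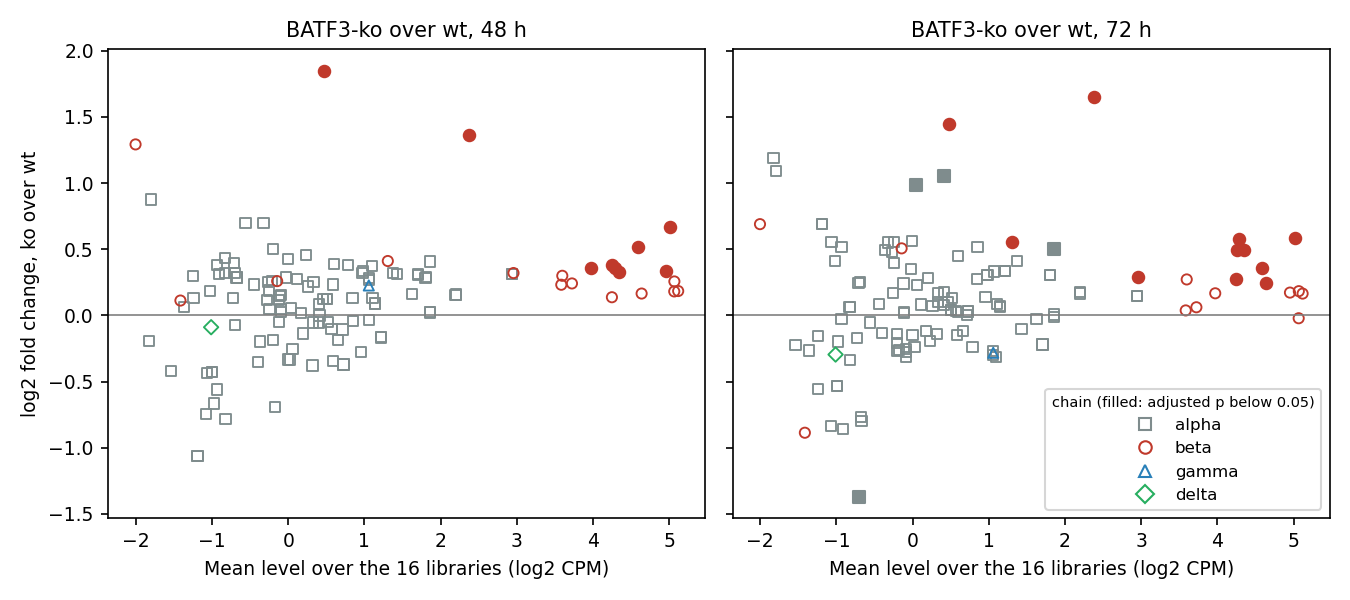
log2 fold change of ko over wt (y) against the mean level over the 16 libraries (x, log2 CPM) for the 127 tested V segments at 48 h (left) and 72 h (right), with chains by shape and calls filled. Calls at 48 h are all beta segments, while at 72 h alpha segments are called as well.

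Segments that mark T cells with semi-invariant receptors did not pass. Trav11 and its exact copy Trav11d are used by natural killer T cells, and Trav1 by mucosal-associated invariant T cells. Trav11 had 16, 38, 27 and 15 counts in ko and 23, 26, 11 and 11 in wt at 72 h (log2 0.51, adjusted p = 0.334, edgeR). Trav1 had 9, 14, 7 and 13 counts in ko and 20, 17, 21 and 22 in wt at 72 h. Its groups did not overlap there, but the log2 fold change of -0.84 missed the threshold (SE 0.404, adjusted p = 0.109, edgeR), and at 48 h it was -0.74 (adjusted p = 0.306).

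The genotype difference was not shown to change with time. In the interaction test, 0 of 127 V segments passed in edgeR, DESeq2 or limma-voom, while 5.61% of all genes passed in edgeR (2.08% higher, 3.53% lower). An unadjusted p under 0.05 was reached by 10 segments, all alpha. The smallest adjusted p was that of Trav4-3 (0.0897, log2 difference 0.97, edgeR), and without ko replicate 1 at 48 h it was 0.0433, the one call. Without ko replicate 4 at 72 h Trav6-1 was called instead, at -2.17 (adjusted p = 0.0463, edgeR). Trbv26 had a log2 difference of 0.29 (SE 0.240) and Trbv23 of -0.41 (SE 0.389).

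Between 48 h and 72 h most V segments rose in both genotypes. In ko cells 71 of 127 were higher at 72 h and none lower, against 34.4% higher and 33.6% lower of all genes (68.0% in all). In wt cells 71 were also higher and none lower, against 33.6% and 29.9% (63.6% in all). The calls in ko were 58 alpha and 13 beta segments, and in wt 57 alpha, 12 beta, Trgv2 and Trdv1. Because each genotype has its own libraries these comparisons share no samples. Time and the culture sampled at it cannot be told apart.

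The largest time differences lay in alpha segments of low count. Trav15d-2-dv6d-2, whose exact copy is Trav15n-2, had 56, 30, 28 and 39 counts in ko at 72 h and 17, 22, 9 and 13 at 48 h (log2 1.44, SE 0.358, adjusted p = 0.00100, edgeR). In wt it had 54, 57, 33 and 55 counts at 72 h and 10, 20, 25 and 9 at 48 h (log2 1.80, SE 0.351, adjusted p = 8.54e-05, edgeR). Trav13n-4 was higher by 1.36 in wt (adjusted p = 0.00532, edgeR). Trav12d-1, with exact copy Trav12n-1, was higher by 1.82 in ko (adjusted p = 0.00238, edgeR), where its groups overlapped at 9, 25, 28 and 15 counts at 72 h and 10, 3, 8 and 3 at 48 h.

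Among the beta segments, Trbv26 was higher at 72 h than at 48 h by 1.05 in ko and by 0.76 in wt, Trbv15 by 0.96 in ko and 0.75 in wt, and Trbv12-1 by 0.80 in ko and 0.69 in wt, all of them called. Trav14d-1, the alpha segment with the largest share (5.12% of alpha counts over the 16 libraries), was higher at 72 h by 0.47 in ko and 0.63 in wt. Scaled to the V total of the chain, the counts of calls fell to 28 in ko (15 higher, 13 lower) and 17 in wt (9 higher, 8 lower). In that scaling Trbv1 was lower at 72 h, with log2 values of -0.28 in ko and -0.23 in wt (adjusted p = 0.00192 and 0.00934, edgeR), against 0.10 and 0.18 without it, and Trav14d-1 turned to -0.17 in ko and -0.04 in wt, neither of which passed.

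Constant regions and CD3 chains complete the receptor, and those of beta were also higher in ko. Trbc2, a beta constant gene, averaged 931.4 ± 112.5 CPM in ko and 758.9 ± 62.7 CPM in wt at 48 h (SD, n = 4 each), higher by 0.30 (adjusted p = 0.0349, edgeR). At 72 h it averaged 1050 ± 56.0 CPM in ko and 853.2 ± 100.2 CPM in wt (SD, n = 4 each), also higher by 0.30 (adjusted p = 0.00788). Trbc1 was higher at 72 h (0.23, adjusted p = 0.0417) and missed the threshold at 48 h (0.21, adjusted p = 0.162). Trac, the alpha constant gene, had log2 fold changes of 0.10 and 0.07 and did not pass (adjusted p = 0.273 and 0.284, edgeR).

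Relative to Trbc1 and Trbc2 together, summed beta V CPM was 22.8% ± 0.807 in ko and 21.8% ± 1.08 in wt at 48 h, and 26.7% ± 0.409 in ko and 26.3% ± 1.28 in wt at 72 h (SD, n = 4 each). Those ranges overlapped at both times. Cd3g and Cd3d, signalling chains of the receptor complex, were called higher at 48 h (0.31 and 0.25) and 72 h (0.54 and 0.53, log2), and Cd247, the zeta chain, at 72 h alone (0.28). Cd3e, Cd8a and Cd8b1 did not pass at either time. Trdc and the gamma constant genes Tcrg-C1, Tcrg-C2 and Tcrg-C4 did not pass either, and Tcrg-C3 was too low to test.

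Of 84 J and D segments, 24 could be tested, and 3 were higher and none lower at each time: Trbj1-2, Trbj2-1 and Trbj2-7 at 48 h, and Trbj1-1, Trbj1-2 and Trbd2 at 72 h. Over all genes 4.41% were higher at 48 h and 16.9% at 72 h, so the 72 h count of these segments was not above that share. Dntt encodes terminal deoxynucleotidyl transferase, the enzyme that adds bases at V, D and J junctions in developing lymphocytes. It averaged 0.912 ± 0.259 CPM in ko and 0.427 ± 0.299 CPM in wt at 48 h, and 8.97 ± 1.48 CPM in ko and 3.56 ± 0.573 CPM in wt at 72 h (SD, n = 4 each). Its log2 fold changes of 1.13 (adjusted p = 0.0412) and 1.33 (adjusted p = 6.56e-05, edgeR) both passed. Rag2, which makes the recombinase together with Rag1, had no count in any library, and Rag1 had at most 1.

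Markers of other cells moved beside these counts, and their part in the V segment differences was not tested. Of 8 natural killer cell genes, some of which activated CD8 cells also express, Klrb1c, Klre1 and Gzma were higher in ko at both times. At 72 h Klra4 was also higher and Eomes was lower. Their summed level was 121.6 to 133.0 CPM in ko and 77.0 to 81.4 CPM in wt at 48 h, and 184.5 to 196.6 CPM in ko and 120.6 to 147.6 CPM in wt at 72 h. The natural killer and mucosal-associated T cell list summed to 211.0 to 291.4 CPM in ko and 164.6 to 192.6 CPM in wt at 48 h, and 743.1 to 877.6 CPM in ko and 516.4 to 748.0 CPM in wt at 72 h. Nearly all of that was Plac8, its one called gene of 6 tested, and Zbtb16, the defining factor of those cells, averaged 0.42 CPM or less in every group.

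In the B cell list 1 of 3 tested genes was higher at each time, Ighm, while Pax5, Cd79a and Ms4a1, which mark B cells, averaged 0.35 CPM or less, and the list summed to 286.2 to 320.4 CPM in ko and 242.8 to 251.5 CPM in wt at 48 h, and 319.4 to 353.4 CPM in ko and 222.1 to 280.6 CPM in wt at 72 h. Of the myeloid list, 3 of 9 could be tested. Fcgr3 was higher in ko at both times and Cd68 at 72 h, the list summed to 4.31 to 6.02 CPM in ko and 1.46 to 2.64 CPM in wt at 48 h and 18.1 to 23.1 CPM in ko and 6.85 to 7.97 CPM in wt at 72 h, and S100a8, S100a9 and Adgre1 were at 0 in all 16 libraries. Of the CD4 T cell list, Zbtb7b was the one call of 6 tested, at 48 h, and the list summed to 1280 to 1622 CPM in ko and 1237 to 1431 CPM in wt at 48 h and 1672 to 1919 CPM in ko and 1316 to 1832 CPM in wt at 72 h. Among 4 tested gamma delta T cell genes, none was called at 48 h, and at 72 h Cd163l1 was higher and Il17a lower, with sums of 5.12 to 6.84 CPM in ko and 3.96 to 6.08 CPM in wt at 48 h and 4.75 to 5.98 CPM in ko and 3.78 to 5.48 CPM in wt at 72 h. The list of CD8 T cell genes had 2 of 7 higher at 48 h and 3 of 7 at 72 h, and none lower. Counts in these short lists stand against 7.07% of all genes called at 48 h and 36.4% at 72 h.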

How the data were processed

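Poly-A RNA sequencing gave 16 libraries in 4 groups of 4, grouped by their titles. The protocols in the labels give a stranded kit and an input of 100 ng. The tools STAR 2.7, bcl2fastq 2.2.0 and featureCounts and the build GRCm38 are named by the submitters' processing notes. Not given in the sources used here are the annotation release, the strand setting and how reads with several matches were counted. The deposited values are raw read counts for each gene. Symbols and biotypes came from the counts, and exon lengths and transcripts from GENCODE M21, which holds all 136 V segments.

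All 16 libraries entered 1 model in edgeR 4.0.16 (R 4.3.3). Genes were kept by filterByExpr at 10 counts or more, libraries were scaled by TMM, and the robust quasi-likelihood test (two-sided) was adjusted by Benjamini-Hochberg over 15197 genes at a threshold of 0.05. CPM use TMM-scaled library sizes, and a share is a percent of the V counts of a chain. Libraries held 29375818 to 39241169 counts. Floors cover counting error only. For the deviation of a library, 0.5 CPM was added and genes had a mean log2 CPM of at least 3.

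The members and the lists (constant and CD3 genes, J and D segments, other cell types) were chosen with earlier results of these data known. In the B cell list, 1 gene is not reported here. Segments were named as the 6 largest rises and falls among the calls of each genotype comparison, 3 each way for the time and interaction tests, the 3 largest shares per chain, and Trav11, Trav11d and Trav1. Others named here were chosen after their values were seen. The alternatives tried were limma-voom (limma 3.58.1), DESeq2 1.42.0, scaling by library size or median ratios, other filters, a block for the replicate number, a fit without the other time, offsets for chain totals or exon length, copies summed, and leaving out each library or both that stood apart. Counting exact copies once was added after the data were seen. The fit was tested on simulated data. Replicate numbers did not pair the libraries.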

Additional observations from a re-analysis of the deposited data

Results flagged for a closer look

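In 5 of 168 sets of 4 libraries, 1 library lay far from the other 3 by Dixon's criterion, which chance alone gives in about 1 in 20. Trbv23 had 1.25 CPM in replicate 4 of ko at 48 h, against 2.23 to 2.39 CPM in the other 3. Trbv12-1 had 31.6 CPM in replicate 3 of ko at 72 h, with the others at 26.6 to 27.2 CPM. Trbv1 had 38.1 CPM in replicate 4 of wt at 72 h, with the others at 30.5 to 31.8 CPM. Trdv2-2 had 0.176 CPM and Trav11 0.498 CPM in replicate 2 of ko at 48 h, each on a few counts.

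Outside the V segments described, the pseudogene Trbv24 was higher in ko at 72 h by 1.10 on the log2 scale (adjusted p = 0.00281, edgeR quasi-likelihood test), at 1.48 ± 0.222 CPM in ko and 0.684 ± 0.274 CPM in wt (SD, n = 4 each). At 48 h its log2 fold change was 0.22 (adjusted p = 0.686).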

How the results depend on the processing

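At 48 h the count of V segments called for ko against wt (9) was 7 to 9 under other scalings, tools, filters and treatments of copies, but 3 when scaled to the chain total, 4 with exon length offsets, 15 without both libraries that stood apart, and 4 to 13 when each library was left out. At 72 h the count (15) was 13 to 20 under those alternatives and 10 to 16 when each library was left out. Calls over all genes moved too. At 48 h they went from 1075 to 2552 without both libraries, and to 507 to 1955 when each was left out. At 72 h they went from 5526 to 6290 and to 4534 to 5930. The interaction count (0) was 0 to 1 when each library was left out and 0 otherwise. For 72 h against 48 h, the count in ko (71) was 28 scaled to the chain total and 43 with copies summed, and 64 to 73 leaving out each library. In wt (71) it was 17 and 45, and 61 to 74. With copies summed, fewer members were tested (69). With scaling to the chain total, the log2 fold change of 72 h over 48 h turned to -0.10 for Trbv12-2 in ko, -0.17 in ko and -0.042 in wt for Trav14d-1, -0.17 in ko and -0.039 in wt for Trav14n-1, and -0.28 in ko and -0.23 in wt for Trbv1; this scaling divides out the rise of the whole chain. With library-size scaling, the summed log2 ratio of ko over wt at 72 h was -0.030 for alpha and 0.18 for beta; the cause was not tested.

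Leaving out each library gave log2 ratios of 0.28 to 0.39 (48 h) and 0.26 to 0.35 (72 h) for summed beta, and 0.11 to 0.14 and 0.058 to 0.12 for summed alpha. For the effective number they were 0.031 to 0.042 and 0.049 to 0.064 for beta, and -0.19 to -0.12 and -0.095 to -0.030 for alpha. Same-numbered libraries did not deviate together (correlations of -0.26 to 0.28). With the replicate number as a block the counts were 7 at 48 h and 15 at 72 h, and 72 and 67 over time in ko and wt. Of the values under the alternatives for the segments named by rule, 60 lost and 34 gained a call. A further 7, called in either fit, turned their direction. The other 3480 stayed on the same side of the threshold, and some that were uncalled in both fits turned their direction. The 9 V segments with the fewest counts were not tested.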

Other observations

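The locus order places Trbv21, Trbv23, the pseudogene Trbv24 and Trbv26 within 1 stretch of chromosome 6, with 2 other pseudogenes between them. This stretch was noticed after the values were seen. Trbv21, at the lowest level of the beta segments, had log2 fold changes of 1.29 (SE 0.783) at 48 h and 0.69 (SE 0.744) at 72 h and did not pass the test (adjusted p = 0.350 and 0.504, edgeR). It had 16, 11, 3 and 4 counts in ko and 6, 1, 0 and 8 in wt libraries at 48 h, so its groups overlapped. Trbv20 and Trbv29, the functional segments on either side, had log2 fold changes of 0.32 and 0.18 at 48 h and 0.29 and -0.02 at 72 h. Across the 22 beta segments, the order in the locus and the log2 fold change had a Spearman rho of 0.02 at 48 h and 0.17 at 72 h, given as a description since the segments share the same libraries. For the 103 tested alpha segments it was 0.18 at 48 h and 0.27 at 72 h.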
